A study of Homo sapiens with 24 samples.

Results

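Interferon-stimulated genes are the antiviral genes that cells switch on when interferon is sensed, and a list of 41 of them was followed through an RNA-seq experiment on HCT116 cells, an established human colorectal cancer line. The members were taken by gene symbol, with no measured value in the rule, and all 41 symbols were found among the 60675 gene identifiers of each library. The list was chosen with earlier results of these data known. The cells were of 3 lines, called by their p53 status: Mutant, Null (no p53) and WT (wild type p53). Each line was given 20 uM APR-246 before 6 Gy of irradiation (combination), 6 Gy without the compound (irradiation), APR-246 without irradiation, or solvent, which makes 12 groups of 2 libraries and 24 libraries in all. APR-246 is a small molecule developed to restore activity to mutant p53. All groups shared McCoy 5A medium with 10% fetal bovine serum, and irradiated cells were collected after 72 hours. Each p53 status is 1 line, so that p53 status and any other difference between the lines cannot be told apart, and the labels do not name the mutation of the Mutant line. The replicates are numbered with no statement that they were separate cultures, so p-values measure the spread between these samples, which may be technical.

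Interferons of type I and type III are secreted proteins that bind paired receptor chains and activate the kinases JAK1 and TYK2. These phosphorylate STAT proteins, among them STAT2, which joins IRF9 in the complex ISGF3, and ISGF3 binds interferon-stimulated response elements in front of the genes described here. The encoded proteins sense or cut foreign RNA, bind its ends, tag proteins with the ubiquitin-like ISG15, or restrict viruses at membranes, and gut epithelium is known for its response to type III interferon.

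The DNA in front of the members often holds the element that ISGF3 binds, and 4 promoters are shown: those of IFIT1, IFI6 and ISG15, which were called higher after irradiation, and that of IFIT5, which was not. The windows run from 250 bases before to 50 bases after the transcription start, on the strand of the gene (RefSeq, GRCh38.p14), and capitals mark the motif searched on both strands: GAAA, any 2 bases and GAAA again, which reads TTTC, any 2 bases and TTTC on the other strand. IFIT1 is at chr10:89392373-89392672 (plus strand), IFI6 at chr1:27672143-27672442 (minus strand), ISG15 at chr1:1013247-1013546 (plus strand) and IFIT5 at chr10:89414318-89414617 (plus strand).
IFIT1: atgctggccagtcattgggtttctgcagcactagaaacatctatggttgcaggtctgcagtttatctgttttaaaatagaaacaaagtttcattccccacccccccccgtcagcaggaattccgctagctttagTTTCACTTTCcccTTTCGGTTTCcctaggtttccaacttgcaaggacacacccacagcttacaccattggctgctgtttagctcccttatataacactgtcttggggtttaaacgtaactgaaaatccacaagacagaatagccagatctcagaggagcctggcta
IFI6: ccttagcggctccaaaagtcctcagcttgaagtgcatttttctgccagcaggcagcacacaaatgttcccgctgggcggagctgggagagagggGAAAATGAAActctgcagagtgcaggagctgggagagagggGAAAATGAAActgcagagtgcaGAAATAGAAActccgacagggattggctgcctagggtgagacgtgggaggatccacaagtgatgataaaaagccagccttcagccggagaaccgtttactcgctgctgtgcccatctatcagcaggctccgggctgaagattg
ISG15: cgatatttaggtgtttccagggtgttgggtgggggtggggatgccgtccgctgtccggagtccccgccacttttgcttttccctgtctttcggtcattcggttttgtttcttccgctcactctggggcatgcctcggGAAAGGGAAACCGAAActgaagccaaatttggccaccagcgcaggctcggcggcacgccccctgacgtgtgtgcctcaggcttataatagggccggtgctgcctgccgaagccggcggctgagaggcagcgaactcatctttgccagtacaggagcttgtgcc
IFIT5: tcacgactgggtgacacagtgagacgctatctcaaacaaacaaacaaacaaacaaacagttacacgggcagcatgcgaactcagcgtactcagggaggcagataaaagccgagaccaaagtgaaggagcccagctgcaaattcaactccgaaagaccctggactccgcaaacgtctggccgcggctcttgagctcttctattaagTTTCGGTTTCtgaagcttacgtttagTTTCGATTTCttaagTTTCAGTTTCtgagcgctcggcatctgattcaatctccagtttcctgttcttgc
IFIT1 carries 2 matches, the nearer beginning 103 bases before the start. IFI6 carries 3, the nearest beginning 93 bases before the start. ISG15 carries 2 that overlap each other in the run GAAAGGGAAACCGAAA. IFIT5, a neighbour of IFIT1, carries 3, the nearest beginning 4 bases before the start. A window was found for 34 of the 41 members, and 24 of these held the motif in at least 1 window, against 4.38% of the 27305 genes in the table. It stood in 8 of 12 members with a window that were called after irradiation and in 16 of 22 that were not. The latter include IFI44L (with the motif), SAMD9L and XAF1 (both without), which were not tested. A match describes the letters only.

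The libraries held 53184139 to 58058729 reads assigned to genes. Intestinal epithelial markers summed to 4880 to 17335 CPM (reads scaled to a common library total; 7 of 7 reached 1 CPM), leukocyte markers to 0.763 to 4.24 CPM (2 of 8), fibroblast markers to 11.8 to 69.0 CPM (3 of 6) and endothelial markers to 0.964 to 4.12 CPM (2 of 4). Of the 41 members, 38 passed the filter on low values and were tested among 20668 genes. IFI44L, XAF1 and SAMD9L did not pass, with highest libraries at 0.0896, 0.106 and 0.461 CPM.

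The library labelled WT APR-246 1 stood apart, which was looked at after results were known. Over 218 genes lower after APR-246 in both Mutant and Null cells, without overlap and by over 1 on the log2 scale, its median log2 difference from the WT solvent mean was -0.14, against -1.67 in WT APR-246 library 2. Over 71 genes higher in those lines in the same way it was -0.07, against 1.34 in library 2. With genes chosen likewise in the other lines, the medians were -1.25 and -1.50 (lower genes) and 1.15 and 1.01 (higher genes) in the Mutant APR-246 libraries, and -1.74 and -2.21, and 1.34 and 1.63, in the Null ones. Results that rest on the library are given below with and without it. Without it the filter passed 39 members among 22363 genes, so the number of genes tested changes too.

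The members differed widely in abundance. Per exon length, as a mean over the 24 libraries, IFITM3, a membrane protein that blocks viral fusion, stood highest at 482 RPKM (CPM per kilobase of exon). ISG15, the ubiquitin-like modifier, followed at 219.6 RPKM, then IFITM2 at 107 RPKM and IFI6, a small membrane protein that limits viral replication, at 66.7 RPKM. Among the tested members the lowest were MX2, a GTPase that blocks viral genomes on their way into the nucleus, at 0.00966 RPKM, and RSAD2 (viperin) at 0.0240 RPKM. In CPM, 10 of the 41 members had a mean under 1 and 3 a mean of at least 100.

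Irradiation raised antiviral genes in the mean of the 3 lines: 15 of 38 tested members rose and 0 fell (limma on log2 of TMM-scaled CPM plus 0.5, called at an adjusted p under 0.05 over all genes tested). Over all genes, 6.84% were called higher and 6.13% lower, and 5823 of 20668 had an unadjusted p under 0.05. The median log2 difference was 0.43 over the members and -0.01 over all genes. The largest differences were those of IFIT1 (2.18 ± 0.14, estimate ± SE), OASL (2.01 ± 0.29) and IFI6 (2.0 ± 0.29). In bulk RNA, fewer cells of a type and less RNA per cell cannot be told apart.

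The IFIT proteins bind the ends of foreign RNA, and 3 of the 4 tested genes rose. IFIT1 (chromosome 10, 89392546 to 89406486, GENCODE 29), which holds RNA that lacks the full host cap, had 16.7 and 13.6 CPM after irradiation against 7.96 and 4.47 CPM in solvent in Mutant cells. It had 12 and 9.80 CPM against 1.65 and 0.850 CPM in Null cells, and 11.1 and 10.7 CPM against 1.84 and 1.15 CPM in WT cells. Every irradiation library stood above every solvent library, also across lines (adjusted p = 1.07e-06). IFIT2, which pairs with other IFIT proteins, had 3.92 and 2.04 CPM after irradiation against 5.04 and 1.94 CPM in solvent in Mutant cells. In Null cells it had 3.18 and 1.96 CPM against 0.612 and 0.382 CPM, and in WT cells 4.89 and 3.31 CPM against 1.82 and 0.365 CPM. The groups overlapped in Mutant cells and were apart in Null and WT cells (1.07 ± 0.19, adjusted p = 0.00189). IFIT3, which strengthens RNA binding by IFIT1, spanned 0.909 to 3.37 CPM (median 2.11 CPM) over the 6 irradiation libraries and 0.0347 to 3.51 CPM (median 0.735 CPM) over the 6 solvent libraries. It rose by 1.06 ± 0.20 (adjusted p = 0.00269), although 1 Mutant solvent library was the highest of the 12. IFIT5, a relative that binds single-stranded RNA, spanned 3.76 to 12.6 CPM (median 7.35 CPM) after irradiation and 3.63 to 21.2 CPM (median 7.01 CPM) in solvent, with overlap, and was not called (-0.17 ± 0.26). Of the exon bases of IFIT2, 10.3% are shared with AL353751.1 on the same strand and LIPA on the opposite strand, so its count is uncertain.

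All 4 tested OAS genes rose. OAS1, OAS2 and OAS3 make the messenger that activates RNase L when double-stranded RNA is present, and OASL lacks that activity and aids RNA sensing by RIG-I. OASL had 28.0 and 33.5 CPM after irradiation against 5.52 and 8.31 CPM in solvent in Mutant cells. It had 33.3 and 43.3 CPM against 8.06 and 9.16 CPM in Null cells, and 28.8 and 37.2 CPM against 7.64 and 9.09 CPM in WT cells. The lowest irradiation library, at 28.0 CPM, was above the highest solvent library, at 9.16 CPM (adjusted p = 0.000594). OAS1 spanned 0.804 to 6.13 CPM (median 2.61 CPM) after irradiation and 0.0520 to 1.63 CPM (median 0.543 CPM) in solvent (1.57 ± 0.22, adjusted p = 0.000522). OAS3 spanned 59.8 to 185 CPM (median 65.9 CPM) after irradiation and 19.2 to 57.0 CPM (median 25.4 CPM) in solvent (1.49 ± 0.23, adjusted p = 0.000872). Both were higher without overlap within each line. OAS2 was close to the floor, with 0.107 to 0.368 CPM after irradiation and 0 to 0.108 CPM in solvent, and its log2 difference of 0.51 ± 0.08 (adjusted p = 0.000956) is compressed by the 0.5 CPM added.

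In the ISG15 conjugation system 3 of 5 members rose. ISG15 (chromosome 1, 1001138 to 1014540) had 297 and 382 CPM after irradiation against 75.3 and 141 CPM in solvent in Mutant cells. It had 232 and 369.6 CPM against 105 and 145 CPM in Null cells, and 272 and 401 CPM against 79.5 and 121 CPM in WT cells. The irradiation libraries lay above the solvent libraries in every line (1.54 ± 0.37, adjusted p = 0.012). HERC5, the main ligase for ISG15 in human cells, spanned 7.20 to 19.7 CPM (median 10.5 CPM) after irradiation and 2.08 to 10.7 CPM (median 3.74 CPM) in solvent (1.17 ± 0.25, adjusted p = 0.00617). HERC5 overlapped across lines and within WT cells, with 19.7 and 7.45 CPM against 8.49 and 3.54 CPM. HERC6, a related ligase, spanned 3.74 to 8.48 CPM (median 6.42 CPM) after irradiation and 2.05 to 7.71 CPM (median 4.0 CPM) in solvent (0.59 ± 0.17, adjusted p = 0.0305), and removing 1 library ended that call for 9 of the 12 (log2 difference 0.48 to 0.70 over the leave-outs). USP18, which removes ISG15 and restrains the type I receptor, and UBE2L6, the conjugating enzyme, had differences of 0.67 ± 0.22 and 0.43 ± 0.29 and were not called.

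Of 7 tested membrane proteins 2 rose. IFI6 (chromosome 1, 27666061 to 27672218, minus strand) had 135 and 157 CPM after irradiation against 37.6 and 57.2 CPM in solvent in Mutant cells. It had 53.9 and 55.4 CPM against 12.4 and 14.4 CPM in Null cells, and 62.2 and 86.2 CPM against 10.8 and 15.9 CPM in WT cells, without overlap in any line (adjusted p = 0.000563). IFI27, a mitochondrial membrane protein, spanned 3.42 to 6.49 CPM (median 4.77 CPM) after irradiation and 1.15 to 2.20 CPM (median 1.47 CPM) in solvent, with no overlap over all lines (1.34 ± 0.22, adjusted p = 0.0012). IFITM1, IFITM2, IFITM3, BST2 (tetherin, which holds budding virus at the cell surface) and PLSCR1 (a phospholipid scramblase) were not called, at 0.30, 0.24, 0.39, 0.23 and -0.16. The 3 IFITM genes share 21.3% to 32.5% of their exon bases with each other or other genes, so their counts are uncertain.

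The remaining members were mixed. CMPK2, a mitochondrial nucleotide kinase whose gene neighbours RSAD2, spanned 1.23 to 2.23 CPM (median 1.59 CPM) after irradiation and 0.208 to 1.12 CPM (median 0.423 CPM) in solvent (1.17 ± 0.18, adjusted p = 0.000675). SP110, a nuclear body protein, spanned 7.13 to 13.1 CPM (median 8.69 CPM) after irradiation and 2.62 to 9.98 CPM (median 4.36 CPM) in solvent (0.93 ± 0.15, adjusted p = 0.000985), with 20.9% of its exon bases shared with genes on the opposite strand. IFI44, a cytosolic protein, spanned 0.338 to 0.699 CPM (median 0.504 CPM) after irradiation and 0 to 0.319 CPM (median 0.106 CPM) in solvent (0.66 ± 0.18, adjusted p = 0.0228), and removing 1 library ended that call for 7 of the 12 (log2 difference 0.56 to 0.75 over the leave-outs). CMPK2 and IFI44 were without overlap over all lines, and SP110 was without overlap within each line only. The Mx GTPases, the ISGF3 factors STAT2 and IRF9, the DDX60 helicases, and PARP9, PARP14 and DTX3L of the ADP-ribosylation group held no call by limma, nor did RSAD2, SAMD9, EPSTI1, TRIM22 and IFI35. Of the exon bases of IRF9, 48.4% are shared with AL136295.5 on the same strand, so its count is uncertain. The lowest differences were those of the exonuclease ISG20 (-0.32 ± 0.26), DDX60L (-0.27 ± 0.48) and IFIT5. ISG20 spanned 10.4 to 18.8 CPM (median 16.8 CPM) after irradiation and 10.7 to 32.6 CPM (median 18.5 CPM) in solvent, with overlap. Of the 15 calls, 13 were kept without any 1 of the 12 libraries, all but HERC6 and IFI44.

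**Figure D1:**
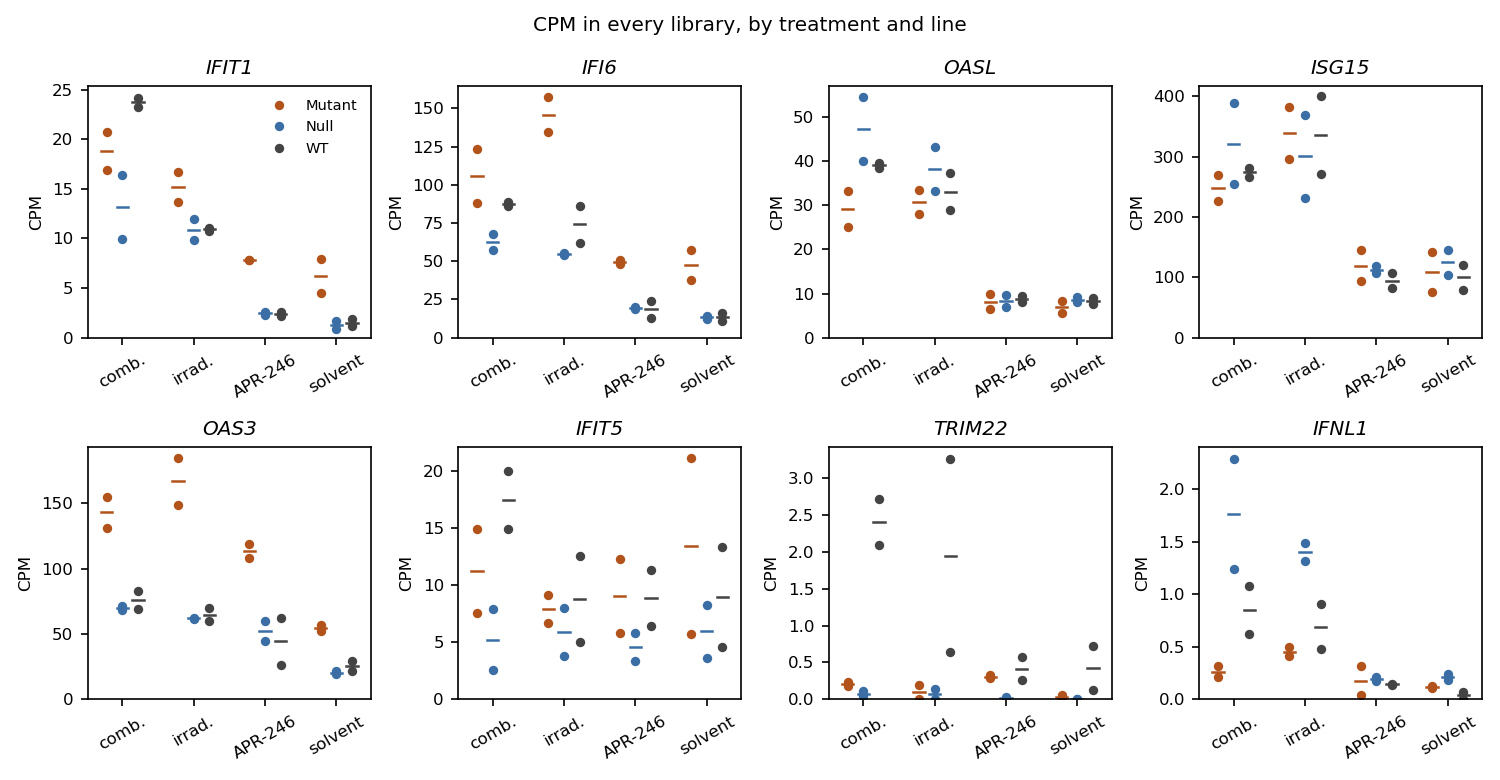
CPM (linear axes from 0) of 7 members and of the interferon gene IFNL1 in every library by treatment and line, with points for libraries and lines for the mean of 2. IFIT1, IFI6, OASL and ISG15 are higher under combination and irradiation than under APR-246 and solvent in each line, IFIT5 overlaps between treatments, and TRIM22 passes 1 CPM in WT libraries only.

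**Figure D2:**
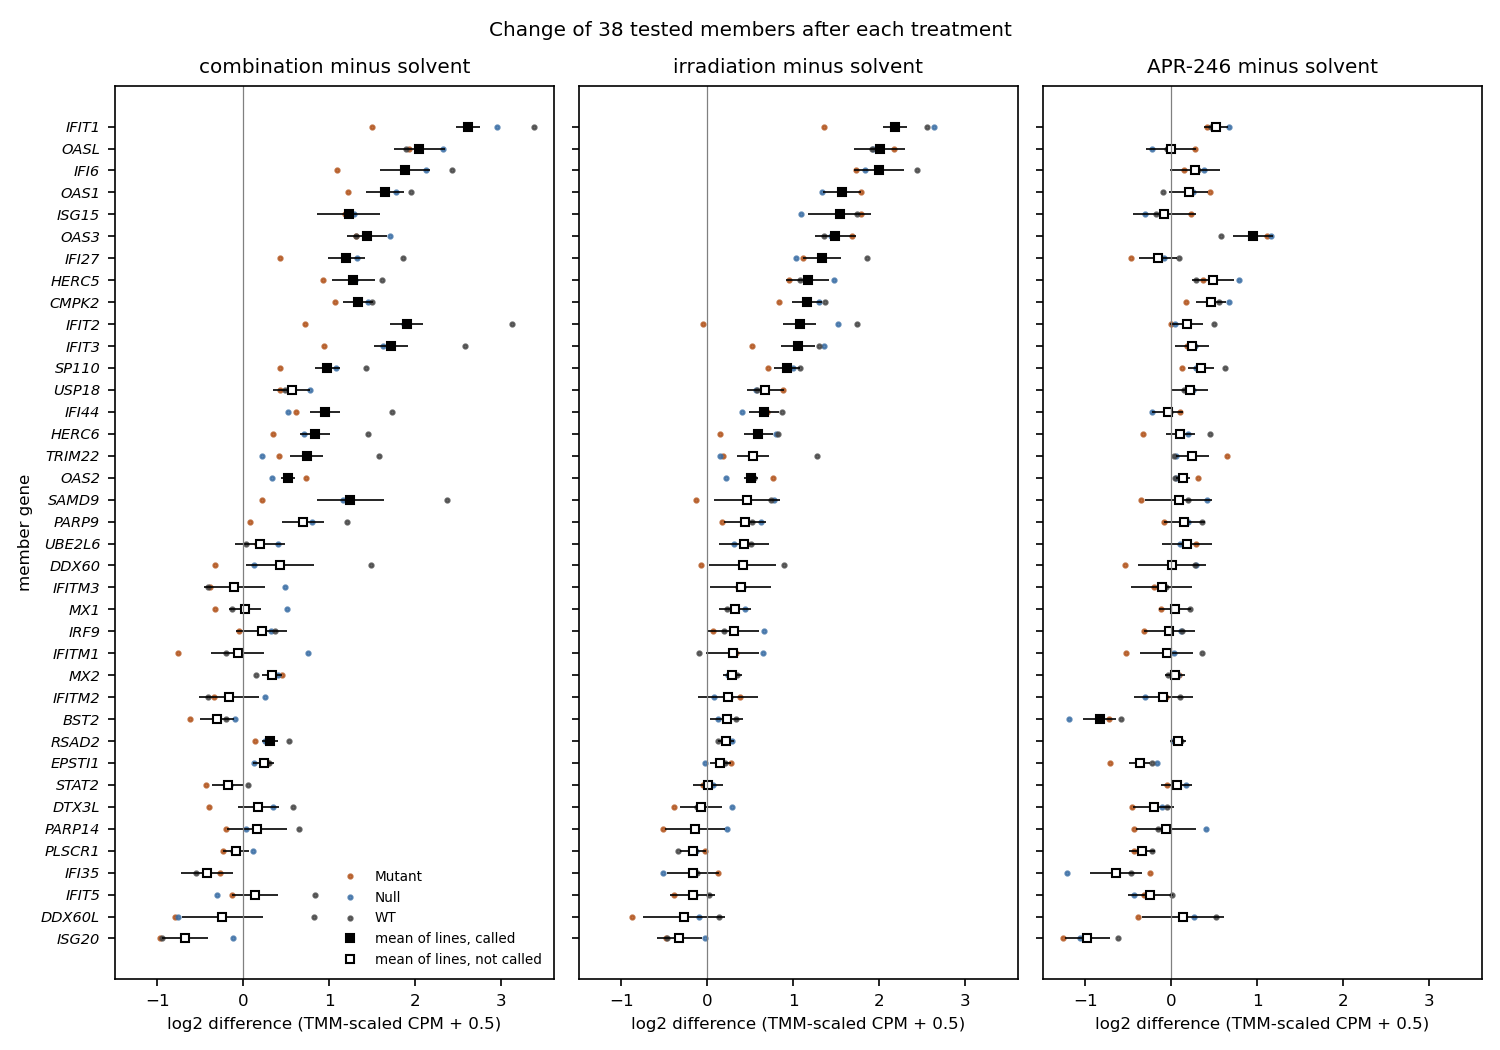
Log2 difference from solvent of the 38 tested members after combination, irradiation and APR-246. Squares with bars are means of the 3 lines ± SE (6 libraries against 6), filled where called, and points are single lines. Filled squares number 18, 15 and 2 in the 3 panels, led by IFIT1 in the first 2.

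Within single lines 2 libraries stood against 2 and fewer members passed the test. In Mutant cells 0 members were called after irradiation by limma, with 13 at an unadjusted p under 0.05, 0 by edgeR and 4, all higher, by DESeq2. Over all genes limma called 0.0677% higher and 0.00968% lower, with 2711 of 20668 at an unadjusted p under 0.05, and DESeq2 called 1.67% higher. In Null cells 2 were called higher, IFIT1 (2.63 ± 0.25, adjusted p = 0.000212) and IFIT2 (1.53 ± 0.33, adjusted p = 0.0441), against 0.411% of all genes higher and 0.266% lower. In WT cells 6 were called higher, against 0.968% of all genes higher and 0.590% lower: IFIT1 (2.56 ± 0.25, adjusted p = 6.44e-05), IFI6 (2.44), IFI27 (1.86), IFIT2 (1.74), CMPK2 (1.37) and SP110 (1.08). Only the IFIT1 calls held without any 1 of the 4 libraries, in Null and in WT. Limma estimates 1 spread over all groups, so these calls also depend on libraries outside the comparison. Without WT APR-246 library 1 it called more members in each line, all higher. Larger shares of all genes were then called too, in both directions. The member median was 0.30 in Mutant, 0.43 in Null and 0.53 in WT cells.

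The single libraries were also compared by overlap. In 11 of 38 members both irradiation libraries were above both solvent libraries in each of the 3 lines, as in 9.43% of all genes, and 0 were lower in each, as in 3.39%. With combination joined to irradiation and APR-246 joined to solvent, a grouping added after the data had been seen, 7 of 38 members were higher without overlap in each line, against 0.740% of all genes, and 0 were lower, against 0.106%. These were IFIT1, IFI6, IFI27, ISG15, OAS1, OASL and USP18. By line the same held for 10 members in Mutant (5.00% of all genes), 16 in Null (5.57%) and 14 in WT cells (5.05%), and the reverse for 0 members in each (0.856%, 1.37% and 2.23%). The numbers without WT APR-246 library 1 were again 14 (6.29%) in WT cells and 7 (0.793%) in each line. OAS3 was without overlap in Mutant and Null but not in WT cells, where it had 69.8 and 59.8 CPM after irradiation and 26.1 and 62.5 CPM after APR-246.

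Some cell type markers moved as well. CD14 (1.04 ± 0.18, adjusted p = 0.00141) and ITGAM (0.75 ± 0.13, adjusted p = 0.00188), listed as leukocyte markers, were called higher after irradiation. CD14 spanned 0.508 to 1.85 CPM after irradiation and 0.0901 to 0.683 CPM in solvent, and PTPRC, which defines leukocytes, was at most 0.0712 CPM after irradiation and 0 in all 6 solvent libraries. The epithelial genes CDH1 (-0.76) and CLDN7 (-1.03) were called lower. KDR, an endothelial marker, was lower (-0.61 ± 0.16, adjusted p = 0.0194) at no more than 0.210 CPM after irradiation, and 0 fibroblast markers were called by limma, edgeR and DESeq2, with 1 at an unadjusted p under 0.05. Summed over each list, leukocyte markers held 2.12 to 4.24 CPM after irradiation against 0.763 to 1.85 CPM in solvent, endothelial markers 1.32 to 4.12 CPM against 1.53 to 2.79 CPM, fibroblast markers 21.4 to 69.0 CPM against 13.3 to 41.1 CPM and epithelial markers 7617 to 17335 CPM against 4880.2 to 14532 CPM. Their part in the members' values was not tested.

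Under the combination 18 of 38 members rose against solvent in the mean of the lines and 0 fell, against 7.63% of all genes higher and 6.29% lower. The member median was 0.48 and that of all genes 0.01. IFIT1 led (2.62 ± 0.14, adjusted p = 6.9e-08), then OASL (2.05 ± 0.29), IFIT2 (1.90 ± 0.19), IFI6 (1.88 ± 0.29) and IFIT3 (1.72 ± 0.20). SAMD9 (1.25 ± 0.39), TRIM22 (0.74 ± 0.19) and RSAD2 (0.31 ± 0.09) were called here and not after irradiation alone, and leaving out 1 library ended the calls of SAMD9 for 9 of the 12 libraries (log2 difference 0.94 to 1.55 over the leave-outs), of RSAD2 for 10 (0.26 to 0.36), of ISG15 (1.23 ± 0.37) for 8 (0.97 to 1.49) and of TRIM22 for WT solvent library 2 (0.62). By line, 2 members were called higher in Mutant (0.261% of all genes), 9 in Null (1.07%) and 11 in WT cells (1.30%). By limma with the 12 group means 0 were called lower in any line, against 0.0871%, 0.876% and 0.929% of all genes.

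In WT cells IFIT1, IFIT2 and IFIT3 reached their highest levels of the 24 libraries under the combination. IFIT1 had 24.2 and 23.2 CPM against 1.84 and 1.15 CPM in solvent (3.38 ± 0.25, adjusted p = 2.82e-06). IFIT2 had 11.9 and 15.5 CPM against 1.82 and 0.365 CPM (3.13 ± 0.33, adjusted p = 0.000115). IFIT3 had 6.86 and 7.93 CPM against 1.10 and 0.329 CPM (2.58 ± 0.34, adjusted p = 0.000843). These were the 3 WT calls that held without any 1 of the 4 libraries. OAS1 had 4.15 and 4.11 CPM against 0.667 and 0.420 CPM (1.95 ± 0.39), and IFI44 1.40 and 1.91 CPM against 0.0721 and 0.0730 CPM (1.73 ± 0.31). TRIM22, an E3 ligase known as a p53 target, of which 10.7% of the exon bases are shared with OR56B1 on the same strand, had 2.72 and 2.09 CPM against 0.721 and 0.128 CPM (1.58 ± 0.33, adjusted p = 0.016). IFI6 (2.43), IFI27 (1.86), CMPK2 (1.5), HERC6 (1.46) and SP110 (1.43) were the other WT calls.

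In Null cells IFIT1 had 16.4 and 9.99 CPM under the combination against 1.65 and 0.850 CPM in solvent (2.96 ± 0.25, adjusted p = 3.98e-05), the 1 call there that held in every leave-out. OASL had 40.0 and 54.5 CPM against 8.06 and 9.16 CPM (2.32 ± 0.51, adjusted p = 0.0318). IFI6 (2.13), IFIT2 (1.87), OAS1 (1.78), OAS3 (1.71), IFIT3 (1.63), CMPK2 (1.45) and SP110 (1.08) were also called. In Mutant cells IFIT1 had 20.7 and 16.9 CPM against 7.96 and 4.47 CPM (1.5 ± 0.25, adjusted p = 0.0331). OAS2 had 0.538 and 0.22 CPM against 0 in both Mutant solvent libraries. With 3 reads per library in place of 0 it was 7.21-fold higher, which is not a sure lower bound if both reads of a pair were counted. Both Mutant calls were lost whichever of the 4 libraries was left out (log2 difference 1.42 to 1.58 for IFIT1 and 0.55 to 0.91 for OAS2).

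Combination against irradiation called 0 members in the mean of the lines by limma, edgeR and DESeq2, with 4 at an unadjusted p under 0.05. Of the 20668 genes 1240 had such a p-value by limma, which called 0.00% of all genes higher and 0.00% lower. The largest values were those of IFIT2 (0.83 ± 0.19), SAMD9 (0.79 ± 0.39), IFIT3 (0.66 ± 0.20) and IFIT1 (0.43 ± 0.14). In WT cells SAMD9, an antiviral protein that restricts translation, had 12.6 and 9.27 CPM under the combination against 5.63 and 1.09 CPM after irradiation. IFIT2 had 11.9 and 15.5 CPM against 4.89 and 3.31 CPM, and IFIT1 24.2 and 23.2 CPM against 11.1 and 10.7 CPM. These 3 were without overlap, as were 15 of 38 members in that direction, against 27.2% of all genes, and 5 were lower without overlap, against 12.3%. In WT cells 0 were called by the same 3 tools, with 7 at an unadjusted p under 0.05, against 849 of 20668 genes. In Mutant cells 3 members were higher without overlap (23.0% of all genes) and 10 lower (8.68%), with a member median of -0.16. The departure from the sum of the separate effects gave 0 calls in the mean of the lines by the 3 tools. At an unadjusted p under 0.05 there were 3 members, against 2319 of 20668 genes, and limma called 0.00484% of all genes higher. Without WT APR-246 library 1 limma called 1 member, OAS3, lower (-1.25 ± 0.26, adjusted p = 0.021), against 0.903% of all genes.

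In Mutant and WT cells the order of the members in combination against irradiation went with their base composition. Across the 38 members Pearson's r between GC percent and the log2 difference was -0.68 in Mutant, 0.13 in Null and -0.82 in WT cells. These points are genes of the same libraries and not replicates. The slope of log2 values on GC percent over all genes was -0.0461 and -0.0211 in the WT combination libraries and -0.0137 and 0.0413 in the WT irradiation libraries. For irradiation against solvent in the mean of the lines r was 0.19, with mean slopes of 0.0169 over the irradiation libraries and -0.0099 over the solvent libraries. In a fit with the replicate number and each library's GC slope as further terms, the WT values of combination minus irradiation were 0.59 ± 0.31 for SAMD9, 1.02 ± 0.30 for IFIT2, 0.97 ± 0.28 for IFIT3 and 0.14 ± 0.20 for IFITM3, whose sign turned, and 0 members were called. For irradiation against solvent the member median was 0.54 in that fit and 0.43 without these terms.

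**Figure D3:**
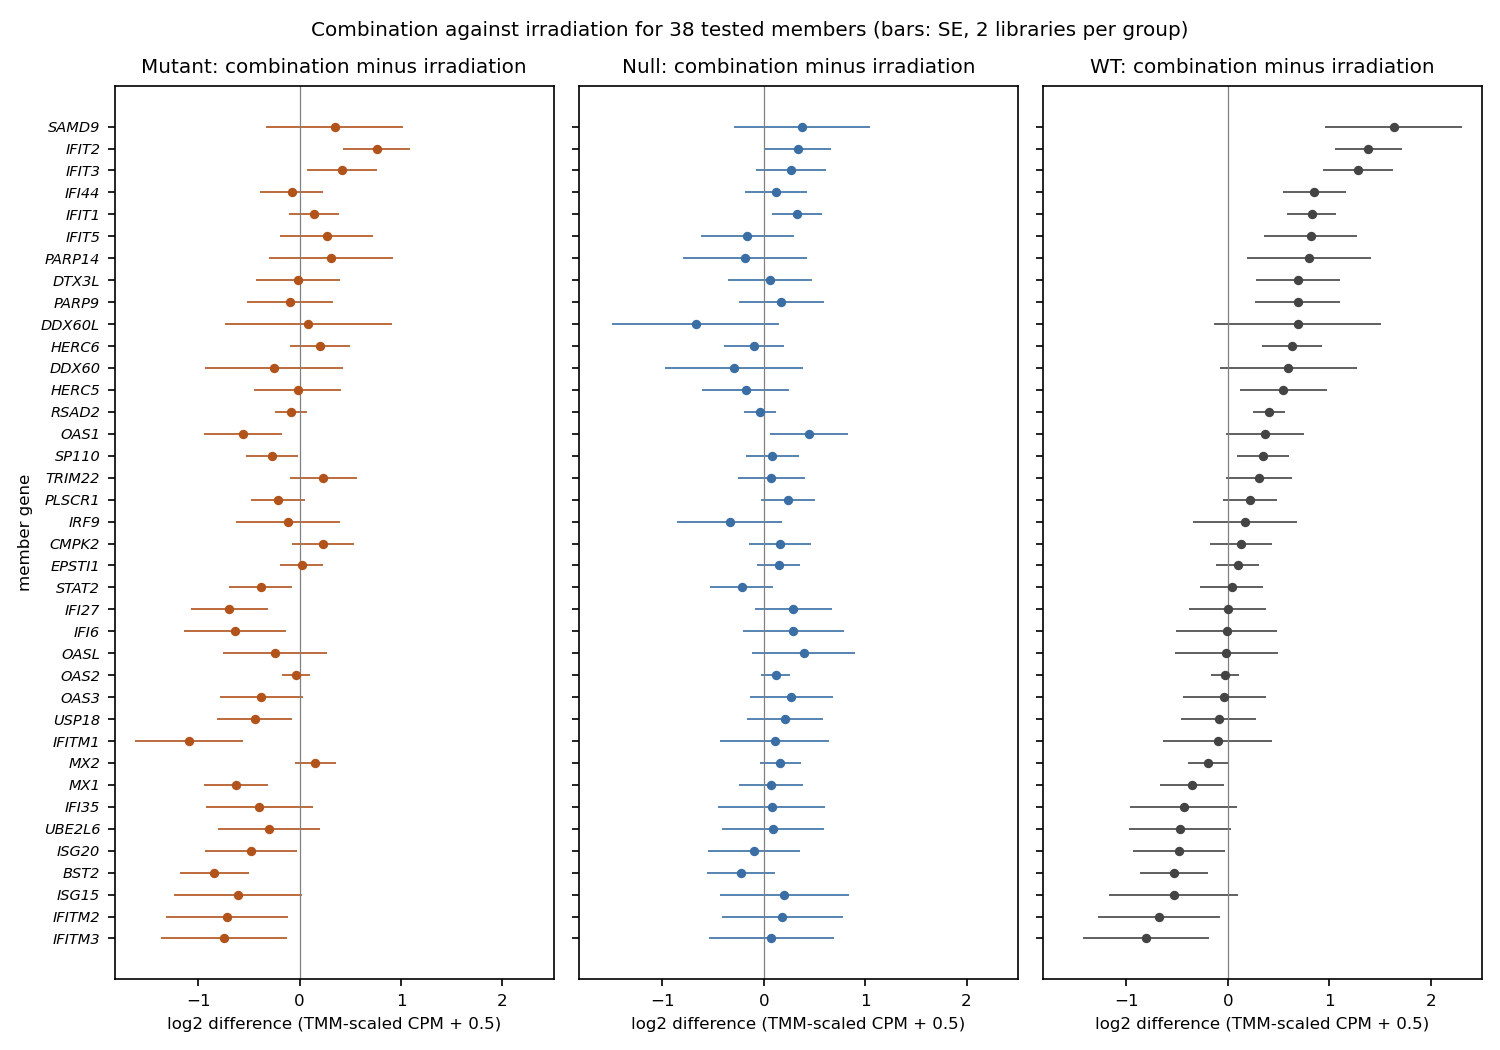
Log2 difference between combination and irradiation of the 38 tested members in each line, ordered by the WT value, with bars of 1 SE (2 libraries against 2). In WT cells SAMD9, IFIT2 and IFIT3 are highest at 1.64, 1.39 and 1.28 and IFITM3 is lowest at -0.81, and no member is called in any line.

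Replicates of 1 group parted by GC content as well. DDX60L, a helicase-like protein with 38.7% GC, had 50.4 and 9.07 CPM in the 2 Mutant solvent libraries and 35.4 and 4.73 CPM in the 2 WT solvent libraries. ISG15, at 63.4% the member of highest GC, was higher in replicate 2 of both groups. Over the members, r between GC and the log2 ratio of replicate 2 to replicate 1 was 0.18 to 0.80 in 11 groups and -0.57 in Null APR-246. The member of lowest GC was SAMD9 (36.0%).

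**Figure D4:**
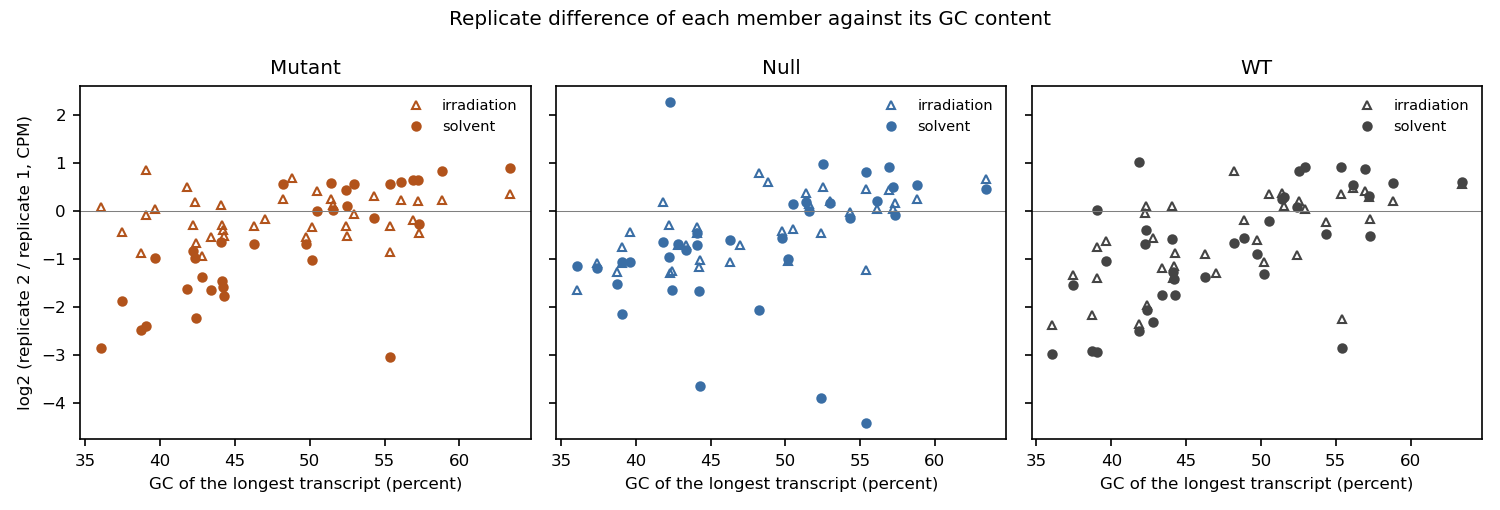
Log2 ratio of replicate 2 to replicate 1 in CPM against GC percent, for members with reads in both libraries, in the irradiation and solvent groups of each line. ISG15, at 63.4% GC, lies above 0 in all 6 groups shown.

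APR-246 alone moved few members: in the mean of the lines 1 of 38 rose and 1 fell, against 1.19% of all genes higher and 1.96% lower, and the member median was 0.05. OAS3 had 108 and 119 CPM after APR-246 against 57.0 and 52.0 CPM in solvent in Mutant cells. It had 44.7 and 59.8 CPM against 21.3 and 19.2 CPM in Null cells, and 26.1 and 62.5 CPM against 29.5 and 21.2 CPM in WT cells. The groups were apart in Mutant and Null cells and overlapped in WT cells (0.95 ± 0.23, adjusted p = 0.0369). BST2 had 5.84 and 2.53 CPM after APR-246 against 7.66 and 6.34 CPM in solvent in Mutant cells. It had 2.94 and 2.46 CPM against 6.19 and 5.86 CPM in Null cells, and 5.74 and 4.04 CPM against 8.33 and 5.79 CPM in WT cells. Every APR-246 library of BST2 lay below the solvent libraries of its line (-0.84 ± 0.19, adjusted p = 0.0272). Leaving out 1 library ended the OAS3 call for 10 of the 12 libraries (log2 difference 0.69 to 1.21 over the leave-outs) and the BST2 call for 8 (-0.94 to -0.73). ISG20 (-0.98 ± 0.26, adjusted p = 0.0539) and IFIT1 (0.52 ± 0.14, adjusted p = 0.0579) missed the threshold. Without WT APR-246 library 1, which leaves 1 library in that group, the differences were 1.21 ± 0.19 for OAS3 and 0.59 ± 0.15 for IFIT1. They were 0.69 ± 0.12 for CMPK2 and -0.86 ± 0.21 for BST2. With all libraries, in single lines limma and edgeR called 0 members, with 5, 6 and 1 at an unadjusted p under 0.05 in Mutant, Null and WT cells, and DESeq2 called 1, in Null cells. That call was lower, where DESeq2 called 177 of all genes higher and 279 lower. Over all genes limma called 0.0290% higher and 0.102% lower in Null cells and 0.00% in Mutant and WT cells. An unadjusted p under 0.05 was held by 1516, 1797 and 557 of 20668 genes in Mutant, Null and WT cells.

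Set against APR-246, the combination raised 12 members in the mean of the lines (0.943% of all genes) and irradiation raised 9 (0.842%), with 0 lower in either (0.140% and 0.0435%). IFIT1 differed by 2.10 ± 0.14 under the combination and by 1.66 ± 0.14 after irradiation, and OASL by 2.06 ± 0.29 and 2.01 ± 0.29. BST2 was higher after irradiation than after APR-246 (1.06 ± 0.19, adjusted p = 0.0168), a call that ended for 5 of the 12 libraries left out (log2 difference 0.95 to 1.17 over the leave-outs). Without any 1 library 7 of the 12 calls under the combination and 5 of the 9 after irradiation were kept. There were 10 calls under the combination (0.501% of all genes) and 6 after irradiation (0.402%) without WT APR-246 library 1. Both comparisons share the APR-246 libraries.

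The lines differed in these genes in solvent. Of 38 members, 30 had their highest solvent mean in Mutant and 28 their lowest in Null cells. The same order was not counted over all genes, so these counts stand without a background. Mutant cells had 8 members called higher than Null cells and 0 lower (1.2% and 1.29% of all genes). IFIT1 had 7.96 and 4.47 CPM in Mutant against 1.65 and 0.850 CPM in Null cells (1.80 ± 0.25, adjusted p = 0.000498), the 1 call that held in every leave-out. PARP9, an ADP-ribosyltransferase partner of DTX3L, had 27.7 and 8.93 CPM in Mutant against 4.55 and 2.58 CPM in Null cells (1.89 ± 0.42, adjusted p = 0.023). IFIT2 (1.79), IFIT3 (1.78), DTX3L (1.67), OAS1 (1.55), MX1 (1.35) and EPSTI1 (0.90) were the other calls. Against WT, Mutant cells had 1 call in solvent, IFIT1 (1.67 ± 0.25, adjusted p = 0.00244; 0.213% of all genes higher and 0.416% lower), which was lost without Mutant solvent library 1 (1.59). Null against WT in solvent had 0 calls by limma and edgeR and 1 by DESeq2, with 5 members at an unadjusted p under 0.05. Of the 20668 genes 1511 had such a p-value, and limma called 0.368% higher and 0.624% lower. DESeq2 called 199 genes higher and 265 lower.

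Averaged over the 4 treatments, with 8 libraries against 8, Mutant cells had 18 members higher than Null cells and 0 lower, against 5.92% and 6.11% of all genes, with a member median of 0.67. IFI35, a cytosolic protein of innate signalling, spanned 24.5 to 43.5 CPM (median 28.4 CPM) in Mutant and 5.54 to 14.9 CPM (median 9.49 CPM) in Null cells, with no overlap (1.64 ± 0.26, adjusted p = 0.000467). OAS1 spanned 1.10 to 6.13 CPM (median 2.99 CPM) in Mutant and 0.0520 to 1.71 CPM (median 0.532 CPM) in Null cells (1.57 ± 0.19, adjusted p = 3.38e-05). PARP9 had a median of 17.0 CPM in Mutant and 4.70 CPM in Null cells (1.52 ± 0.21). UBE2L6 spanned 38.7 to 67.2 CPM in Mutant and 18.0 to 30.8 CPM in Null cells, with no overlap (1.00 ± 0.25). The calls of IFIT3 (1.37), SAMD9 (1.30), IFI6 (1.24), DTX3L (1.23), OAS3 (1.18), IFITM1 (1.15) and IFIT2 (1.10) followed. MX1, which traps viral nucleocapsids (1.07), IFIT1 (1.06), EPSTI1 (0.89), IFIT5 (0.80), HERC5 (0.78), SP110 (0.71) and HERC6 (0.56) completed them. Of the 18 calls, 14 held without any 1 of the 16 libraries, all but SAMD9, IFIT5, HERC5 and HERC6. The lowest values were those of OASL (-0.39 ± 0.25), ISG15 (-0.15 ± 0.32) and IFI44 (-0.06 ± 0.15), not called.

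Against WT, Mutant cells were higher in 8 members and lower in 1 (4.59% and 5.07% of all genes). IFITM1 spanned 6.95 to 22.0 CPM (median 14.7 CPM) in Mutant and 3.57 to 8.23 CPM (median 5.21 CPM) in WT cells (1.25 ± 0.27, adjusted p = 0.00611). OAS3 spanned 52.0 to 185 CPM (median 125 CPM) in Mutant and 21.2 to 83.1 CPM (median 61.2 CPM) in WT cells (1.25 ± 0.20, adjusted p = 0.000728). IFI6 spanned 37.6 to 157 CPM (median 72.6 CPM) in Mutant and 10.8 to 88.8 CPM (median 43.2 CPM) in WT cells (1.16 ± 0.25, adjusted p = 0.00682). All 3 overlapped across treatments, and OAS3 was without overlap within each treatment. Leaving out 1 library ended the calls of UBE2L6 for 9 of the 16 libraries (log2 difference 0.78 to 1.11 over the leave-outs), of MX1 for 9 (0.49 to 0.70) and of SP110 for 5 (0.44 to 0.59). UBE2L6 (0.94), IFIT1 (0.88), OAS1 (0.82), MX1 (0.59) and SP110 (0.51) were the other higher calls. TRIM22 was lower, with 0 to 0.327 CPM (median 0.190 CPM) in Mutant and 0.128 to 3.26 CPM (median 0.680 CPM) in WT cells (-1.13 ± 0.16, adjusted p = 0.000267). Across the members r between GC and the difference was 0.48, and with the replicate number and GC slopes in the fit the member median was 0.22, against 0.12 without them. Without WT APR-246 library 1, 5 members were called higher (3.16% of all genes) and 1 lower (3.80%), and the calls of UBE2L6, MX1 and SP110 were lost.

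Null cells were lower than WT cells in 15 members and higher in 0 (6.01% and 5.74% of all genes), with a member median of -0.25. TRIM22 spanned 0 to 0.140 CPM (median 0.0173 CPM) in Null and 0.128 to 3.26 CPM (median 0.680 CPM) in WT cells (-1.39 ± 0.16, adjusted p = 2.91e-05). SAMD9 spanned 0.278 to 3.28 CPM (median 0.652 CPM) in Null and 0.438 to 12.6 CPM (median 2.74 CPM) in WT cells (-1.21 ± 0.34, adjusted p = 0.0277). DDX60, a helicase that assists RIG-I, spanned 0.416 to 2.24 CPM (median 1.38 CPM) in Null and 0.657 to 12.6 CPM (median 4.06 CPM) in WT cells (-1.18 ± 0.34, adjusted p = 0.0329). SAMD9 and DDX60 overlapped between the lines, and TRIM22 did so by 1 Null library above the lowest WT library. PARP9 (-1.13), PARP14 (-0.97), IFI35 (-0.95), IFIT3 (-0.93), IFIT2 (-0.91), DTX3L (-0.90), IFIT5 (-0.82), HERC5 (-0.80), EPSTI1 (-0.80), OAS1 (-0.75), HERC6 (-0.47) and PLSCR1 (-0.43) were the other calls. Of the 15, 6 held without any 1 of the 16 libraries: IFIT2, IFIT3, PARP9, DTX3L, EPSTI1 and TRIM22. Members of high GC had the higher values, with r = 0.62, and the mean slope on GC was 0.0114 in Null and -0.0123 in WT libraries. With the replicate number and GC slopes in the fit the member median was -0.34. Without WT APR-246 library 1, 9 members were called, all lower (4.40% of all genes): the calls of SAMD9, DDX60, PARP14, IFI35, IFIT5, HERC6 and PLSCR1 were lost and that of CMPK2 was added. The 3 line comparisons share libraries.

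**Figure D5:**
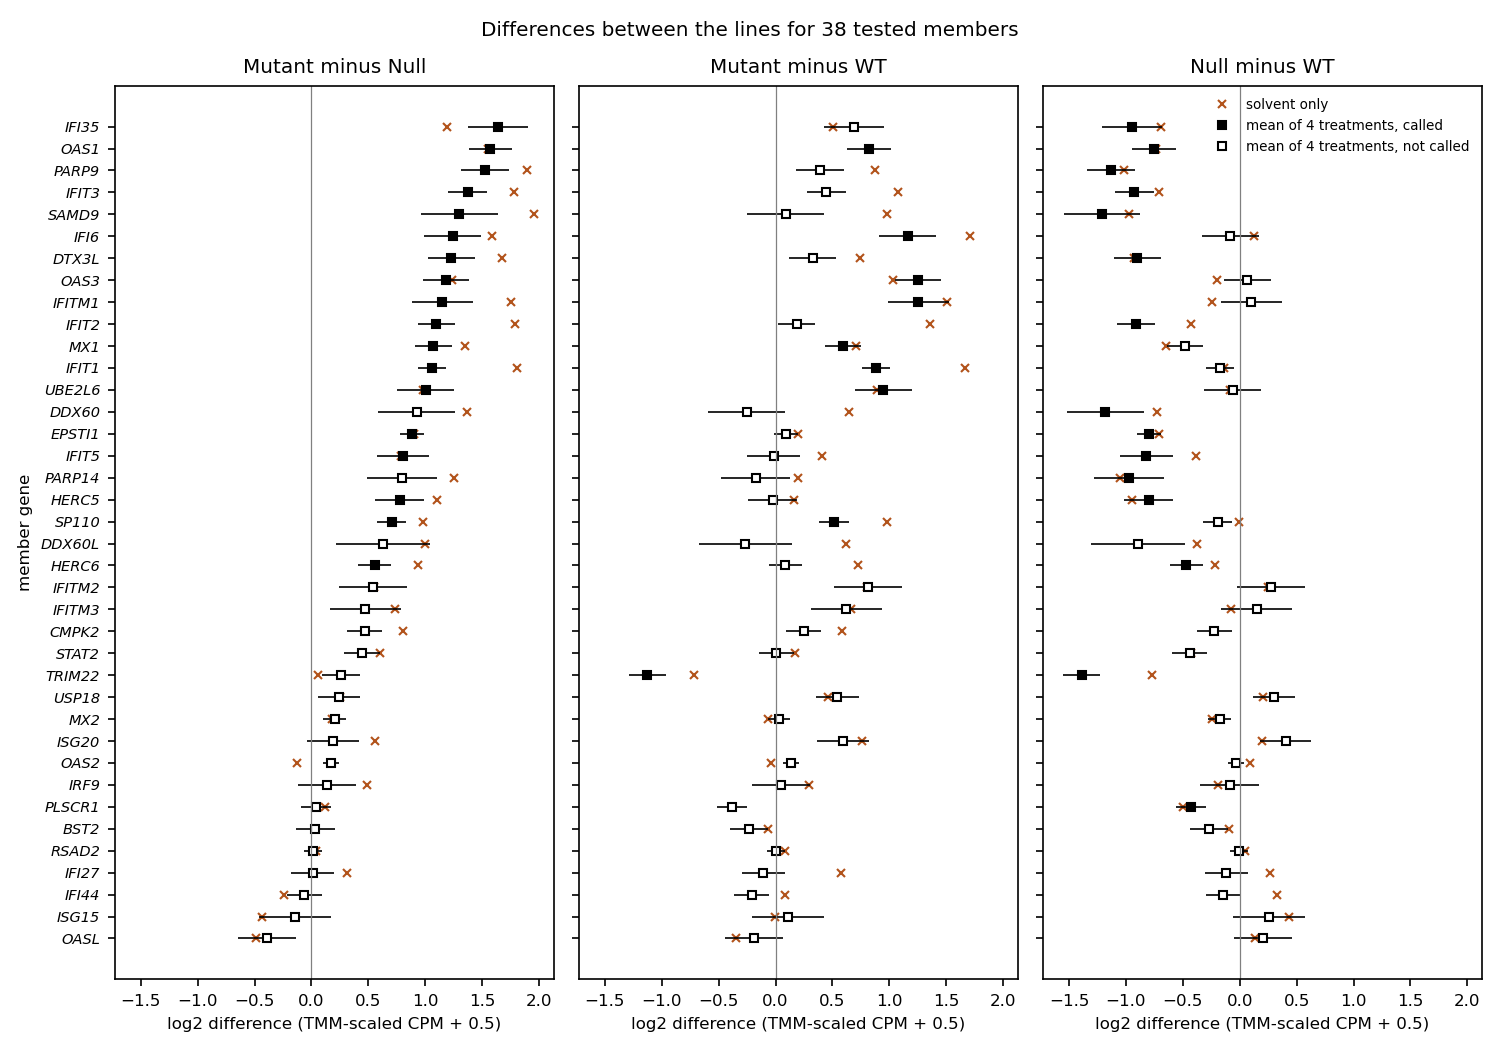
Log2 differences between the lines for the 38 tested members. Squares with bars are means of the 4 treatments ± SE (8 libraries against 8), filled where called, and crosses are the solvent groups. Filled squares number 18 above 0 in Mutant minus Null, 8 above and 1 below 0 in Mutant minus WT, and 15 below 0 in Null minus WT.

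The difference of the irradiation response between lines was called for 0 members in each of the 3 pairs of lines by limma, edgeR and DESeq2. IFIT2 had the largest gaps of the Mutant line, at -1.78 ± 0.46, adjusted p = 0.68 for Mutant minus WT and -1.57 ± 0.46, adjusted p = 1 for Mutant minus Null. IFIT1 stood at -1.2 ± 0.35 for Mutant minus WT. At an unadjusted p under 0.05 there were 3 members in Mutant minus Null, 3 in Mutant minus WT and 1 in Null minus WT. In the same order, 412, 580 and 624 of the 20668 genes had such a p-value. Over all genes limma called 0.00% lower in the first pair, 0.0387% in the second and 0.0290% in the third. Mutant cells had the highest solvent mean of IFIT1 and IFIT2.

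Upstream of the members, 3 of 4 tested ligand genes rose after irradiation in the mean of the lines, all of type III, against 6.84% of all genes. IFNL1 had 0.410 and 0.493 CPM after irradiation against 0.124 and 0.104 CPM in solvent in Mutant cells. It had 1.48 and 1.32 CPM against 0.180 and 0.243 CPM in Null cells, and 0.478 and 0.903 CPM against 0 and 0.0730 CPM in WT cells. Every irradiation library was above every solvent library (1.06 ± 0.19, adjusted p = 0.00198). IFNL2 (0.71 ± 0.10, adjusted p = 0.000386) and IFNL3 (0.88 ± 0.15, adjusted p = 0.00161) rose too, but are near-identical copies whose reads may be split between them. All 3 rose under the combination (1.04, 0.76 and 0.62) and were lower in Mutant than in Null cells (-0.74, -0.38 and -0.48). IFNB1, a type I interferon, was at most 0.109 CPM and at 0 in all irradiation libraries.

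The receptor and transducer lists held few calls, against 6.84% of all genes called higher and 6.13% lower by limma. Lists of 5 or 6 genes cannot tell their shares from these. Of 6 receptor genes limma called 0 after irradiation, with 2 at an unadjusted p under 0.05, edgeR 0 and DESeq2 1. Of 6 negative regulators limma, edgeR and DESeq2 called 0, with 3 at an unadjusted p under 0.05. In the mean of the lines 5823 of 20668 genes had such a p-value by limma. Over all genes edgeR called 1261 higher and 1197 lower, and DESeq2 1934 and 1865. JAK1 was the 1 call by limma among 5 kinase and STAT genes, with 26.3 to 71.3 CPM (median 55.9 CPM) after irradiation against 37.6 to 173 CPM (median 86.8 CPM) in solvent (-0.90 ± 0.21, adjusted p = 0.00915). IRF7, which amplifies interferon production, was the 1 call among 6 tested IRF genes, with 46.6 to 151 CPM (median 91.5 CPM) after irradiation against 19.1 to 61.4 CPM (median 35.0 CPM) in solvent (1.28 ± 0.37, adjusted p = 0.0338).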

How the data were processed

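RNA of 24 libraries (oligo(dT) selection, paired reads of 100 bases) was deposited by the authors as CPM per gene, reads per gene divided by the library total. Per the submitters' processing notes, FastQC, STAR, featureCounts and Subread were used on GRCh38.p13; the strand setting is not given in the sources used here. The CPM gave back whole reads for 100% of values within 0.05 read, 53184139 to 58058729 per library. The floor of 3 reads thus equals 0.0517 to 0.0564 CPM, for counting error only. Among low counts, 74.5% to 81.5% per library were even. Whether both reads of a pair were counted was not tested, so the recovered reads may not be independent counts. The tests on recovered reads took them as they stood. The main test was limma 3.58.1 in R 4.3.3 (trend, robust) on log2(TMM-scaled CPM + 0.5), with 12 group means, genes kept by filterByExpr (count minimum 10) and Benjamini-Hochberg adjustment over 20668 genes, at 0.05. Means of lines or treatments weight groups equally. RPKM was computed from CPM and exon length.

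Alternatives were edgeR 4.0.16 and DESeq2 1.42.0 on the recovered reads, 0.1 CPM added, no filter, no TMM, a replicate block with and without a GC slope, and leaving out each library. Checked on simulated data for irradiation against solvent in WT (19841 genes, 200 changed), the test recovered 46% of 4-fold and 1.04% of 2-fold changes with 0 false calls. Members, lists and promoters shown were chosen with earlier results of these data known. Named genes are the called members (the 10 largest where over 10) and the 3 highest and 3 lowest of the main comparisons; others were named after their values were seen. Some genes are not reported here.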

Additional observations from a re-analysis of the deposited data

How the results depend on the processing

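Of 137 member calls, 0 reversed among 2459 values under the alternatives, and calls were lost for 38 without TMM, 37 without the filter, 29 with edgeR, 8 with 0.1 CPM added, 2 with DESeq2 and 1 with the replicate block and GC slope. The counts of called members that moved by over 1.5 times were as follows. With the replicate block they were 9 for irradiation against solvent in Mutant, 10 in Null and 13 in WT cells; 9, 14 and 20 for the combination in the same order of lines; and 1 and 1 for APR-246 in Mutant and Null. The block gave 6 for APR-246 in the mean of lines, 15 for irradiation against APR-246, 1 beyond additive, 2 for Null against WT in solvent, 5 for Mutant against WT in solvent and 17 over treatments, and 19 for Mutant against Null in solvent. Adding the GC slope to the replicate block gave 11, 18 and 21 for irradiation in Mutant, Null and WT, 18, 18 and 23 for the combination, and 5 and 7 for APR-246 in Mutant and Null. In the mean of lines it gave 24 for irradiation, 10 for APR-246, 28 for the combination, 26 and 22 for combination and irradiation against APR-246, and 5 beyond additive. Between lines it gave 4 for Null against WT in solvent, 13 and 20 for Mutant against WT in solvent and over treatments, 23 and 28 for Mutant against Null, and 2 for the response of Mutant minus WT. These counts join both directions. With the block and GC slope, lower calls numbered 1, 1 and 1 for irradiation in Mutant, Null and WT, 6, 1 and 1 for the combination, 4 and 4 for APR-246 in Mutant and Null, and, in the mean of lines, 3 for irradiation, 3 for the combination, 5 for APR-246, 2 for combination against APR-246 and 3 beyond additive. Between lines they were 4 for Null against WT in solvent and 21 over treatments. They were 3 and 1 over treatments for Mutant against WT and against Null, and 2 for the response of Mutant minus WT. With the block alone, lower calls in the mean of lines were 4 for APR-246, 1 for the combination and 1 beyond additive. Between lines there were 2 for Null against WT in solvent and 18 over treatments, and, over treatments, 2 and 1 for Mutant against WT and against Null. The block lost 0 of the 137 calls. Both fits also called many of the 20668 genes. The block alone called 1087 genes higher and 1329 lower for irradiation in Mutant, 646 and 659 in Null and 891 and 720 in WT cells. Adding the GC slope gave, in the mean of lines, 3535 and 3664 genes for irradiation, 2997 and 3062 for APR-246, and 4671 and 4582 for the combination. Deviations of same-numbered libraries correlated at 0.53 to 0.95 over the 55 pairs of groups without Null APR-246 and at -0.72 to -0.25 over the 11 pairs with it. The labels do not say what a number marks, and with 2 libraries per group the numbers were treated as shared numbers only.

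With edgeR the counts were 1 for irradiation in Null and 2 in WT, 0 for the combination in Mutant and 4 in Null, 4 for APR-246 in the mean of lines, 7 for combination against APR-246 and 5 for Mutant against Null in solvent. DESeq2 gave 4 for irradiation in Mutant, 10 in Null and 10 in WT, 1 for APR-246 in Null and 5 in the mean of lines, and 1 and 3 for Null and Mutant against WT in solvent. Over all genes DESeq2 called 292 higher and 306 lower for irradiation in Mutant, 358 and 375 in Null and 441 and 381 in WT. For APR-246 in the mean of lines it called 698 and 810. With 0.1 CPM added irradiation in Mutant gave 1. Without the filter irradiation gave 2 in Mutant and 1 in Null, the combination 4 in Null, APR-246 0 in the mean of lines, Null against WT 7 over treatments and Mutant against Null 4 in solvent. Without TMM irradiation gave 4 in Mutant and 5 in Null, Null against WT 7 over treatments and Mutant against WT 2 in solvent, and the median log2 difference of all genes was 0.19 in place of 0.04 for the combination against solvent in WT. The cause was not tested.

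Leaving out 1 library, irradiation gave 0 to 0 in Mutant, 1 to 1 in Null and 2 to 5 in WT; the combination 0 to 0, 1 to 3 and 3 to 8; and APR-246 0 to 0, 0 to 0 and 0 to 1. In the mean of lines it gave 13 to 16 for irradiation, 0 to 4 for APR-246, 15 to 20 for the combination, 0 to 0 for combination against irradiation, 8 to 11 and 5 to 9 against APR-246, and 0 to 1 beyond additive. Between lines it gave 0 to 0 and 7 to 15 for Null against WT in solvent and over treatments, 0 to 2 and 6 to 12 for Mutant against WT, 2 to 6 and 14 to 21 for Mutant against Null, and 0 to 0 for the response differences. These ranges cover only the libraries of the groups compared, and leaving out a library of another group can move the counts beyond them. A group left with 1 library is assumed to vary like the others. With 2 libraries per group the median SE was 0.32 on the log2 scale.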

Other observations

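Other genes of the pathway lists differed between the lines. PSMB9, a subunit of the immunoproteasome, had 14.2 and 18.4 CPM in Mutant, 2.12 and 4.01 CPM in Null and 3.61 and 6.15 CPM in WT solvent libraries, and over the treatments was higher in Mutant than in Null (2.04 ± 0.28, adjusted p = 0.000117) and WT cells (1.70 ± 0.28, adjusted p = 0.000965). SOCS3, an inhibitor of JAK signalling, was higher in Mutant than in Null (1.06 ± 0.20, adjusted p = 0.00173) and WT cells (1.35 ± 0.20, adjusted p = 0.000301), and IRF1, a factor induced by interferon gamma, likewise (1.03 ± 0.19 and 0.75 ± 0.19). Without WT APR-246 library 1 the differences of Mutant from WT were 1.53 ± 0.28 for PSMB9 and 1.30 ± 0.21 for SOCS3, both still called, and 0.70 ± 0.20, adjusted p = 0.0529 for IRF1, which was not. WARS1, a tRNA synthetase induced by interferon gamma, was lower than in solvent after the combination (-1.94 ± 0.28), irradiation (-1.95 ± 0.28) and APR-246 (-1.57 ± 0.28, adjusted p = 0.00814). In WT cells it had 368 and 77.2 CPM after APR-246 against 420.2 and 444 CPM in solvent, and without WT APR-246 library 1 the APR-246 value was -1.89 ± 0.21, adjusted p = 8.46e-05.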
